A study of Mus musculus with 8 samples.

Results

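The genes described here are 10 genes of the oxygen-sensing pathway, namely the hypoxia-inducible factor (HIF) subunits Hif1a and Epas1, the oxygen sensors Egln1 and Egln3, and the HIF targets Vegfa, Adm, Bnip3, Ndrg1, Ankrd37 and P4ha1. They were matched by symbol among the 43629 genes of the deposited table of read counts, and each of the 10 passed the filter on low counts. Polyadenylated RNA was sequenced from 4 tumor libraries and 4 small intestine libraries. All 8 came from Apc mutant mice of a C57B6/129 background without treatment, so the Apc mutation is shared by both tissues. The labels do not give the Apc allele, the age of the mice or whether the libraries are of different animals. The p-values thus cover the spread among the 8 libraries alone, and that spread may be technical. The comparison asks how tumor differs from small intestine, since no library is labelled as having received the high-fructose corn syrup of the series' title.

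HIF is a transcription factor made of an oxygen-regulated alpha subunit, HIF-1α (gene Hif1a) or HIF-2α (gene Epas1), and the stable partner ARNT. When oxygen is present, prolyl hydroxylases of the EGLN family modify the alpha subunit, the VHL ubiquitin ligase binds it, and it is degraded. When oxygen is scarce the alpha subunit escapes this, enters the nucleus with ARNT and switches on genes for blood vessel growth, glycolysis, mitophagy and collagen modification. The intestinal lining is known for a steep oxygen gradient from the crypt to the lumen, and its HIF-2 drives iron absorption genes. Because HIF activity is set largely by protein stability, transcript levels of Hif1a and Epas1 do not measure it.

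Levels are given as CPM, that is, read counts divided by library size after a TMM correction for differences in RNA composition. Library totals ran from 53856561 to 67371180 counts in tumor and from 62347648 to 84433335 counts in small intestine. The top 50 genes by abundance held 10.8 ± 0.440% of tumor counts, against 22.1 ± 0.635% of small intestine counts (SD, n = 4 each), so the scaling between tissues matters for each fold change below. Going by marker genes, the tissues also held different cells. The summed level of 12 enterocyte markers was 651 to 848 CPM in tumor, against 47638 to 58825 CPM in small intestine. That of 12 blood endothelial markers was 318 to 385 CPM in tumor, against 18.3 to 51.8 CPM in small intestine, and no marker of either list was at 0 counts throughout a tissue. In such bulk samples, fewer cells of a type and less RNA per cell cannot be told apart.

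Hif1a, Egln3, Bnip3 and P4ha1 rose in tumor, by 1.16 to 1.87 on the log2 scale, and Ndrg1 fell. Epas1, Egln1, Vegfa, Adm and Ankrd37 did not pass the test. That is 4 of 10 higher and 1 of 10 lower at an adjusted p under 0.05 (edgeR, quasi-likelihood, Benjamini-Hochberg adjusted over 17029 genes), where 38.9% of all tested genes were called higher, 35.4% lower and 74.3% in either direction. The share of the 10 genes that was called is therefore not above that of genes at large. Their median log2 fold change was 0.22, beside 0.07 for all tested genes. In the 5 called genes the tissues did not overlap in CPM, as in 70.5% of all tested genes (37.5% higher and 33.0% lower). In the same 5 the change was at least 2-fold, as in 50.8% of tested genes (27.9% higher and 22.8% lower).

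**Figure D1:**
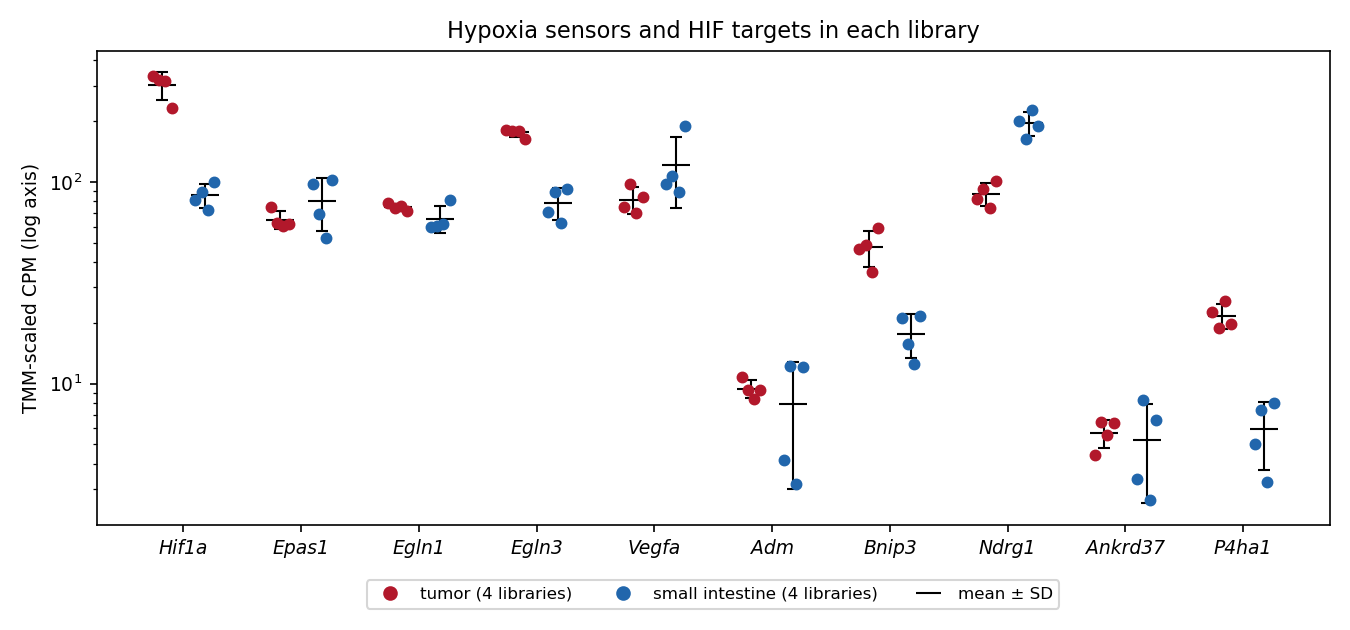
TMM-scaled CPM on a log axis for each of the 10 genes, with 4 tumor libraries (red, left) and 4 small intestine libraries (blue, right) as points and black marks for the mean ± SD. Tumor lies above small intestine in each library for Hif1a, Egln3, Bnip3 and P4ha1 and below it for Ndrg1, and the tissues overlap for the other 5 genes.

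With library totals alone, which apply no composition correction, 8 of the 10 genes were called higher and 0 lower, where 79.6% of all tested genes were called, 62.0% higher and 17.6% lower. The deposited FPKM values (fragment counts scaled for gene length and library size, tested with limma) likewise gave 8 higher and 0 lower, where of 12849 genes 82.7% were called, 64.6% higher and 18.1% lower. Between TMM and library totals the median over tested genes shifted by 0.86 (log2). Changes are therefore best read against that shift. Hif1a, Egln3, Bnip3 and P4ha1 rose under each scaling, while for the other 6 genes the call depended on it or was absent.

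**Figure D2:**
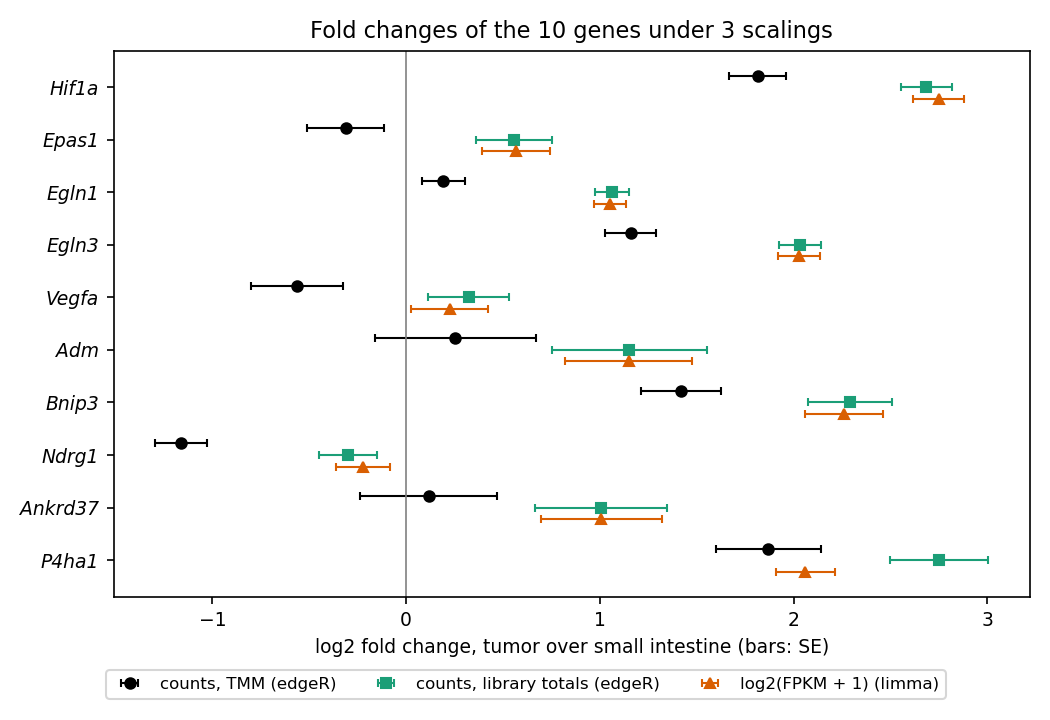
Log2 fold change of tumor over small intestine for the 10 genes, with SE bars, from counts with TMM (circles), counts with library totals (squares) and log2(FPKM + 1) (triangles). Hif1a, Egln3, Bnip3 and P4ha1 are called higher under all 3 scalings, and Epas1 and Vegfa lie below 0 with TMM and above 0 with the other scalings.

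The alpha subunits diverged. Hif1a lies on chromosome 12 from 73901375 to 73947530 (GRCm38, plus strand, protein-coding) and was at 336, 322, 318 and 231 CPM in tumor replicates 1 to 4, against 81.6, 88.8, 72.8 and 99.8 CPM in small intestine replicates 1 to 4. The lowest tumor library, replicate 4, was still above the highest small intestine library. The log2 fold change was 1.81 ± 0.15 (SE), a 3.52-fold rise, with an edgeR adjusted p of 4.21e-06. A same-strand gene, Gm49321, shares 148 exonic bases with Hif1a and was not analysed here. An antisense gene, Gm15283, shares 330 exonic bases with Hif1a and had 24 to 50 counts in tumor and 1 to 14 counts in small intestine, far below the counts of Hif1a (20521 to 30444 in tumor and 3465 to 5787 in small intestine).

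Epas1, the gene of HIF-2α, lies on chromosome 17 from 86753700 to 86833410 (plus strand). It was at 74.9, 62.4, 60.8 and 62.1 CPM in tumor, against 98.1, 69.2, 52.7 and 102.7 CPM in small intestine. Its tumor libraries fell inside the range of the small intestine libraries, and the log2 fold change of -0.31 ± 0.20 did not pass (edgeR adjusted p = 0.184). With library totals Epas1 stood at 0.56 and was called higher (edgeR adjusted p = 0.0249), so its direction depends on the scaling. Epas1 is known to be strongly expressed in endothelium, and the endothelial marker sums given above were higher in tumor. The part of those cells in the level of Epas1 was not tested.

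A ratio of 2 genes within a library does not depend on the scaling between tissues. There were 4.49, 5.15, 5.23 and 3.73 Hif1a reads for each Epas1 read in tumor replicates 1 to 4, against 0.832, 1.28, 1.38 and 0.972 in small intestine replicates 1 to 4. The ratio was thus 4.21-fold higher in tumor, a log2 difference of 2.07 ± 0.20 (SE), with groups that did not overlap. The exact 2-sided permutation p was 0.0286, the smallest that 4 against 4 allows, and stayed 0.0286 after Benjamini-Hochberg adjustment over 6 such ratios. Since most genes differed between these tissues, such a ratio shows unequal change of its 2 genes and no more.

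The EGLN enzymes also differed from each other. Egln3 (PHD3), which is both an oxygen sensor and a HIF target, lies on chromosome 12 from 54178981 to 54203860 (minus strand) and was at 180.1, 179.7, 179.1 and 163.8 CPM in tumor, against 70.9, 89.0, 62.6 and 92.2 CPM in small intestine. Each tumor library exceeded each small intestine library. The log2 fold change was 1.16 ± 0.13, or 2.23-fold (edgeR adjusted p = 3.49e-05). Egln1 (PHD2), the main sensor that marks HIF-α for VHL in most tissues, lies on chromosome 8 from 124908587 to 124949324 (minus strand) and was at 78.7, 74.2, 76.0 and 72.0 CPM in tumor, against 59.5, 60.6, 62.1 and 81.2 CPM in small intestine. Small intestine replicate 4 was above all tumor libraries, and the other 3 were below them.

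The log2 fold change of Egln1 was 0.19 ± 0.11 (edgeR adjusted p = 0.145). Without small intestine replicate 4 it was called, at 0.30 (edgeR adjusted p = 0.00694), and with library totals at 1.06 (edgeR adjusted p = 3.8e-06). The ratio of Egln3 to Egln1 reads was 2.29, 2.42, 2.36 and 2.27 in tumor, against 1.19, 1.47, 1.01 and 1.14 in small intestine, a 1.96-fold difference (log2 0.97 ± 0.11; exact permutation p = 0.0286, adjusted 0.0286). The tumor libraries were close together and all above the highest small intestine library.

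Among 14 other HIF subunits and regulators 5 rose and 6 fell (median log2 fold change -0.32), where 38.9% of all tested genes rose and 35.4% fell. With library totals 10 of the 14 were called higher and 2 lower, where 62.0% and 17.6% of all tested genes were. Egln2, the remaining EGLN enzyme, averaged 59.3 ± 1.89 CPM in tumor, against 133 ± 7.91 CPM in small intestine, and its log2 fold change of -1.16 stayed a fall with library totals (-0.30, edgeR adjusted p = 0.00736). So of the EGLN enzymes one fell, one rose and one did not pass. Hif1an, the asparaginyl hydroxylase that blocks HIF's transactivation domain, was at -0.60 with TMM but at 0.27 with library totals, called in both. Arnt, the shared partner, was likewise at -0.66 with TMM and 0.22 with library totals. The alternative partner Arnt2 had the largest rise of the list, 2.62 ± 0.39, at 43.9 ± 7.34 CPM in tumor, against 7.12 ± 4.15 CPM in small intestine. Cited2, which competes with HIF-1α for the coactivators p300 and CBP, had the largest fall, -2.26 ± 0.12, at 25.6 ± 3.10 CPM in tumor against 122 ± 14.2 CPM in small intestine. Vhl did not pass (0.21 ± 0.12, edgeR adjusted p = 0.136), though with library totals it did (1.07).

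The secreted targets did not pass the test, whereas most genes of their receptors rose. Vegfa, the growth factor that drives new blood vessels, lies on chromosome 17 from 46016993 to 46032369 (minus strand) and was at 74.9, 97.7, 70.1 and 84.0 CPM in tumor, against 97.7, 106.4, 88.9 and 189.7 CPM in small intestine. The tissues overlapped, and small intestine replicate 4 was well above all other libraries. The log2 fold change was -0.56 ± 0.24 (edgeR adjusted p = 0.0532). Without that library it was -0.26, and with library totals it was 0.32 (edgeR adjusted p = 0.178), so neither a fall nor a rise of Vegfa holds across settings.

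Adm, the vasodilator peptide adrenomedullin, lies on chromosome 7 from 110627661 to 110629820 (plus strand). Its level was 10.8, 9.35, 8.40 and 9.28 CPM in tumor, against 4.19, 12.3, 3.17 and 12.1 CPM in small intestine. The tumor libraries were alike, and the small intestine libraries stood on either side of them, 2 below and 2 above. The log2 fold change was 0.25 ± 0.42 (edgeR adjusted p = 0.595), and with library totals 1.15 (edgeR adjusted p = 0.0239).

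Of 9 other VEGF ligands and receptors, 7 rose and 0 fell (median log2 fold change 2.48), beside 38.9% and 35.4% of all tested genes. With library totals 8 rose, beside 62.0% of all tested genes. Flt1, the decoy-like VEGF receptor of endothelium, had the largest rise, 5.87 ± 0.46, at 48.0 ± 3.78 CPM in tumor, against 0.809 ± 0.624 CPM in small intestine. The ligand Vegfb, which binds Flt1 but not the main signalling receptor, rose by 0.78 ± 0.22, at 12.4 ± 2.07 CPM in tumor against 7.18 ± 2.02 CPM in small intestine. Vegfa reads per Vegfb read were accordingly fewer in tumor, at 6.91, 8.05, 6.31 and 5.48, against 10.6, 21.6, 10.4 and 31.4 in small intestine (log2 difference -1.32 ± 0.41; exact permutation p = 0.0286, adjusted 0.0286). Even the highest tumor library was below the lowest small intestine library in this ratio.

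Adrenomedullin acts on the receptor Calcrl together with a RAMP protein. Of 6 genes of its receptors and relatives 5 rose and 1 fell, beside 38.9% and 35.4% of all tested genes. With library totals 5 rose and 0 fell, beside 62.0% and 17.6%. The partner Ramp3 had the largest rise, 5.30 ± 0.32, at 18.5 ± 4.48 CPM in tumor, against 0.467 ± 0.154 CPM in small intestine. Ramp1, which with Calcrl forms the receptor of the neuropeptide CGRP instead, fell by 1.32 on the log2 scale with TMM but did not pass with library totals (-0.46, edgeR adjusted p = 0.0816). All 12 blood endothelial markers rose too, with a median of 3.55, as did 6 of 6 pericyte markers with a median of 2.86, beside 38.9% of all tested genes. The summed pericyte level was 143 to 163 CPM in tumor, against 17.5 to 29.3 CPM in small intestine, and none of the 6 was at 0 counts throughout a tissue. The part of vessel cells in the receptor genes was not tested.

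**Figure D3:**
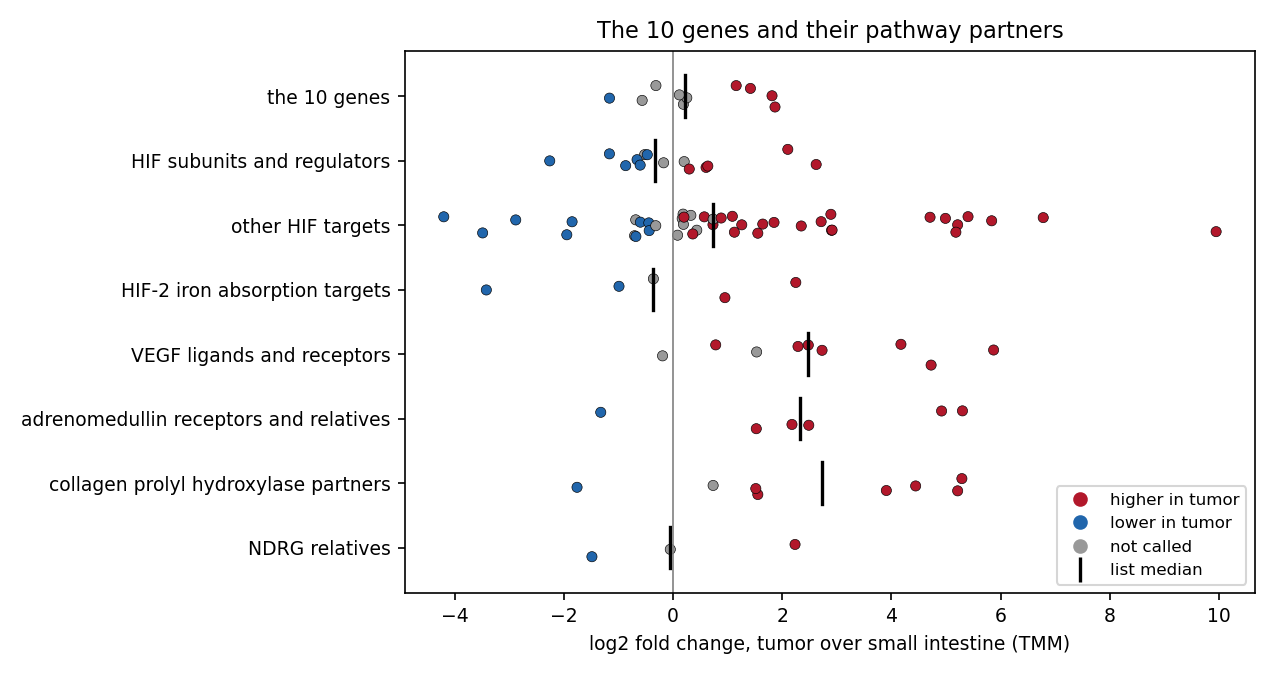
Log2 fold change of tumor over small intestine (TMM) for the 10 genes and for 7 lists of pathway partners, one point per gene (red called higher, blue called lower, grey not called) with the list median as a black bar. The VEGF, adrenomedullin and prolyl hydroxylase lists lie mostly to the right of 0, with medians of 2.48, 2.33 and 2.73, while the 10 genes have a median of 0.22.

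Among targets that act inside the cell, Bnip3 and P4ha1 rose, Ndrg1 fell and Ankrd37 did not pass. Bnip3, a receptor of the outer mitochondrial membrane that recruits the mitophagy machinery, lies on chromosome 7 from 138890836 to 138909519 (minus strand) and was at 46.3, 48.7, 35.7 and 59.1 CPM in tumor, against 21.1, 15.7, 12.5 and 21.7 CPM in small intestine. Each tumor library was above each small intestine library, and the log2 fold change was 1.42 ± 0.21, or 2.68-fold (edgeR adjusted p = 0.000188). An antisense gene, Gm45507, shares 504 exonic bases with Bnip3 and was not analysed here. The strand setting of the counting is not known, so the counts of Bnip3, and its ratio to Bnip3l, may include reads of that gene. The close relative Bnip3l (NIX), also a mitophagy receptor and HIF target, did not pass (0.19 ± 0.09, edgeR adjusted p = 0.0840), but it was called higher in 8 of 19 alternatives, among them library totals (1.06).

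Bnip3 reads per Bnip3l read were 0.535, 0.591, 0.438 and 0.772 in tumor, against 0.301, 0.209, 0.200 and 0.276 in small intestine. The lowest tumor ratio was above the highest small intestine ratio, and the difference was 2.36-fold (log2 1.24 ± 0.22; exact permutation p = 0.0286, adjusted 0.0286).

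P4ha1 encodes a catalytic subunit of collagen prolyl 4-hydroxylase, which stabilises the collagen triple helix. It lies on chromosome 10 from 59323296 to 59373304 (plus strand) and was at 22.6, 18.8, 25.7 and 19.8 CPM in tumor, against 5.05, 7.45, 3.25 and 8.004 CPM in small intestine. The lowest tumor library was well above the highest small intestine library. P4ha1 had the largest log2 fold change of the 10 genes, 1.87 ± 0.27, or 3.65-fold (edgeR adjusted p = 0.000175), although the SE does not separate it from that of Hif1a.

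Collagen-modifying partners of P4ha1 moved further. Of 8 such genes 6 rose and 1 fell (median 2.73), beside 38.9% and 35.4% of all tested genes. With library totals 7 rose and 1 fell, beside 62.0% and 17.6% of all tested genes. P4ha2, Plod1 and Plod2 are counted both here and among the other HIF targets below. P3h2, a prolyl 3-hydroxylase, had the largest rise on 8 counts summed over the small intestine libraries against 496 in tumor. The sister subunit P4ha2 rose by 5.21 ± 0.19, at 26.8 ± 2.16 CPM in tumor, against 0.720 ± 0.158 CPM in small intestine. P4ha1 reads per P4ha2 read were 0.885, 0.725, 1.01 and 0.659 in tumor, against 5.82, 15.0, 4.31 and 10.5 in small intestine. The log2 difference was -3.30 ± 0.43 (exact permutation p = 0.0286, adjusted 0.0286). By reads P4ha1 was thus the main transcript of the pair in each small intestine library. In tumor it was so only in replicate 3, where the 2 were nearly equal. P4hb, the beta subunit shared by the enzyme and also the protein disulfide isomerase of the secretory pathway, fell by 1.76 on the log2 scale, at 829 ± 90.8 CPM in tumor against 2800.4 ± 693 CPM in small intestine. Fibroblast markers, of which 7 of 8 rose beside 38.9% of all tested genes, summed to 1171 to 1877 CPM in tumor. In small intestine they summed to 22.4 to 69.0 CPM, and none was at 0 counts throughout a tissue. Their part in the collagen enzymes was not tested.

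Ndrg1, a stress-induced protein linked to differentiation and lipid trafficking, lies on chromosome 15 from 66929318 to 66969640 (minus strand). It was at 81.9, 92.3, 74.4 and 100.7 CPM in tumor, against 200.4, 163.5, 227.4 and 189.9 CPM in small intestine. All tumor libraries were below all small intestine libraries, with a log2 fold change of -1.16 ± 0.13 (edgeR adjusted p = 3.61e-05). With library totals the fall was -0.30 and not called (edgeR adjusted p = 0.0886), and with FPKM -0.22 (limma adjusted p = 0.168). Enterocyte markers fell in 12 of 12 cases (median -7.11), beside 35.4% of all tested genes, and their part in Ndrg1 was not tested.

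In the same family Ndrg3 fell (-1.48 ± 0.09) and the low Ndrg4 rose (2.24 ± 0.26), at 2.63 ± 0.370 CPM in tumor, against 0.558 ± 0.129 CPM in small intestine. Ndrg2 was at -0.05 ± 0.13 (edgeR adjusted p = 0.748), but at 0.82 with library totals (edgeR adjusted p = 0.000176). Ndrg1 reads per Ndrg2 read were 4.597, 4.96, 4.45 and 6.33 in tumor, against 13.2, 10.3, 11.7 and 9.10 in small intestine (log2 difference -1.12 ± 0.16; exact permutation p = 0.0286, adjusted 0.0286). Relative to Ndrg2, Ndrg1 was thus lower in each tumor library than in any small intestine library, whatever the scaling.

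Ankrd37, a small ankyrin-repeat protein known mainly as a HIF target, lies on chromosome 8 from 45996902 to 46005707 (minus strand). Its level was 4.46, 6.45, 5.55 and 6.35 CPM in tumor, against 3.39, 8.33, 2.65 and 6.64 CPM in small intestine. The tissues overlapped in full, and the log2 fold change was 0.12 ± 0.35 (edgeR adjusted p = 0.773; 1.01 with library totals, edgeR adjusted p = 0.0219). On the opposite strand Ufsp2 and Lrp2bp share 57 and 349 exonic bases with it. Because the strand setting of the counting is not given in the sources used here, and Ufsp2 had 2231 to 2726 counts in tumor and 1365 to 1978 counts in small intestine against at most 563 for Ankrd37, reads of this gene are uncertain.

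**Figure D4:**
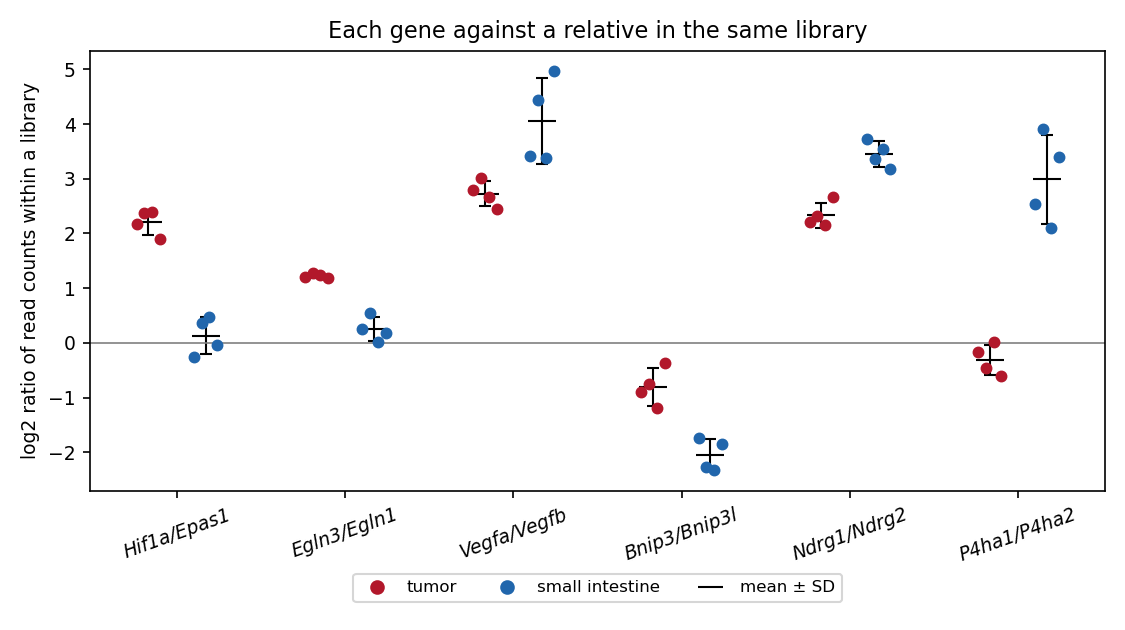
Log2 ratio of read counts of a gene to a relative within the same library, for 6 pairs, with tumor (red, left) and small intestine (blue, right) libraries as points and mean ± SD in black. The tissues do not overlap in any of the 6 pairs, and how often other pairs of genes separate was not counted. Hif1a/Epas1, Egln3/Egln1 and Bnip3/Bnip3l are higher in tumor, and Vegfa/Vegfb, Ndrg1/Ndrg2 and P4ha1/P4ha2 are lower.

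HIF binds a core of ACGTG or GCGTG in regulatory DNA. Promoter windows of 300 bases, from 250 before to 50 after an annotated start of a gene, were taken from RefSeq (GRCm38.p6). That start is not always the outermost one. The windows were searched for both cores on both strands, so that CACGTG counts once on each strand. Windows were matched for 8 of the 10 genes, all except Epas1 and Ndrg1, and each of the 8 held a core in at least 1 window, against 46.7% of 27025 genes. By window it was 8 of 9, against 43.8% of 32851. The exception was 1 of 2 windows of Vegfa, the one at the outer start of the gene (chr17:46032328-46032627, minus strand). The Vegfa matches come from the other window (chr17:46025114-46025413), which lies inside the gene bounds given above. The windows of Hif1a and Ankrd37 also lie inside those bounds. ACGTG itself was found for 7 of 8, against 21.8% of genes. Targets of HIF were among the reasons for listing these genes, so this is a description and not a test. Shown are 2 genes that rose, Bnip3 (chr7:138909457-138909756, minus strand) and P4ha1 (chr10:59323046-59323345, plus strand), and 2 that did not pass, Ankrd37 (chr8:45999801-46000100, minus strand) and Adm (chr7:110627407-110627706, plus strand), each 5′ to 3′ along the gene with the cores of either strand in capitals.
Bnip3: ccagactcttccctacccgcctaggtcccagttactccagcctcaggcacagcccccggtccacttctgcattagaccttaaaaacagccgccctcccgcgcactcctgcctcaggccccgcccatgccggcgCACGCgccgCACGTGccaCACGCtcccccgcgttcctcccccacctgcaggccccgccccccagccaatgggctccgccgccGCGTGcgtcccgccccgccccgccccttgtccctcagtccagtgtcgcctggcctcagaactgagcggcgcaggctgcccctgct
P4ha1: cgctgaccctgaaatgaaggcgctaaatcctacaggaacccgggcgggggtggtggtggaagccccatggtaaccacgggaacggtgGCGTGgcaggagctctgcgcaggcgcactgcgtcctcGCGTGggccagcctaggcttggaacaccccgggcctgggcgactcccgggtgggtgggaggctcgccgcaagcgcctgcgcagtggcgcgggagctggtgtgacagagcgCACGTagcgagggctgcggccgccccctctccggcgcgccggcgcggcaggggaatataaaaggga
Ankrd37: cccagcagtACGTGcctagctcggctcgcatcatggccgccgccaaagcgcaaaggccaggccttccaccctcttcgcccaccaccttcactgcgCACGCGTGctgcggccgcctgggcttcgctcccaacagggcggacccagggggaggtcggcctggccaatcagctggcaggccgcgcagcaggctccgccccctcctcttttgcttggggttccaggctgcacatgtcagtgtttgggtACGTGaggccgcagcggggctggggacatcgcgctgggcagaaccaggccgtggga
Adm: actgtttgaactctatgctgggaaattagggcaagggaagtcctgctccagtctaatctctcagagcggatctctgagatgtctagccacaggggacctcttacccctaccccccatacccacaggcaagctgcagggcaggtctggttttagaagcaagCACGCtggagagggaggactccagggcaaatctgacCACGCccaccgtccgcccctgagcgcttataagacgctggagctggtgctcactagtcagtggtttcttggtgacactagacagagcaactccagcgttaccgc
The Bnip3 window held 5 matches, the first letters of which lay 117 to 35 bases before the start, and 2 of them form a single CACGTG. P4ha1 had 3 matches, at 163, 126 and 16 bases before the start. Ankrd37 had 4, from 241 to 6 bases before the inner start that its window covers, of which 2 overlap. Adm had 2 of the GCGTG kind, at 90 and 54 bases before its start. The core was therefore present both in genes that rose and in genes that did not pass the test. A match of these letters is not evidence of HIF binding.

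A wider list of 43 other HIF targets went both ways, with 24 higher and 9 lower, beside 38.9% and 35.4% of all tested genes, a median of 0.73 and a range from -4.20 to 9.95. With library totals 34 were higher and 5 lower, beside 62.0% and 17.6% of all tested genes. Among the largest rises were those of Tmem45a, with 8023 counts in tumor against 5 in small intestine (sums of 4 libraries each), and of the collagen cross-linking enzymes Lox (6.78 ± 0.38) and Loxl2 (5.84 ± 0.24). The largest falls were those of Angptl4, an inhibitor of lipoprotein lipase (-4.20 ± 0.31), and of Pfkfb4, which sets the level of a glycolysis activator (-3.48 ± 0.15). Ccng2, a cyclin linked to cell cycle arrest, was at -2.88 ± 0.23, and Insig2, a brake on cholesterol synthesis, at -1.94 ± 0.21. These 7 named genes kept their direction and call under each scaling.

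Iron absorption genes that HIF-2 is known to drive in the duodenum also split, with 2 of 5 higher and 2 lower, beside 38.9% and 35.4% of all tested genes. With library totals 3 of the 5 were called higher and 1 lower, beside 62.0% and 17.6% of all tested genes. The iron importer Slc11a2 lost its call there (-0.99 with TMM, -0.12 with library totals). Cybrd1, the brush-border ferric reductase, rose by 2.25 ± 0.62 but was low in either tissue, with 7.14 ± 1.04 CPM in tumor, against 1.496 ± 1.44 CPM in small intestine. Heph, the ferroxidase that works with the exporter ferroportin, fell by 3.42 on the log2 scale, at 54.4 ± 15.1 CPM in tumor against 581 ± 94.6 CPM in small intestine.

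Between genes, levels were compared as FPKM, which accounts for gene length. Over all genes the deposited FPKM summed to 502777 to 525873 in tumor libraries, but to 1484108 to 10163708 in small intestine libraries. The source of that difference was not tested. In tumor the order was Hif1a (106 ± 15.9 FPKM, SD, n = 4), Egln3 (82.5 ± 2.72), Ndrg1 (45.5 ± 7.10), Bnip3 (40.3 ± 9.27), Vegfa (37.1 ± 5.11), Egln1 (26.4 ± 0.808), Epas1 (13.2 ± 1.28), Ankrd37 (11.4 ± 2.37), Adm (9.02 ± 0.950) and P4ha1 (8.43 ± 1.11). Neighbours whose ranges did not overlap were Egln3 and Ndrg1, Vegfa and Egln1, and Egln1 and Epas1. In small intestine the order was Ndrg1 (53.2 ± 7.89 FPKM), Vegfa (32.5 ± 10.5), Egln3 (19.6 ± 3.07), Hif1a (14.8 ± 1.86), Egln1 (12.3 ± 1.33), Epas1 (8.78 ± 2.38), Bnip3 (7.62 ± 1.84), Ankrd37 (5.56 ± 2.91), Adm (3.97 ± 2.41) and P4ha1 (1.28 ± 0.430). There the gaps without overlap were between Vegfa and Egln3 and between Egln1 and Epas1. Hif1a was thus at place 1 in tumor and 4 in small intestine, while Ndrg1 was at place 3 in tumor and 1 in small intestine.

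A rank among 16951 tested genes within each library is likewise free of the scaling between tissues. By FPKM, Hif1a stood at percentile 95.6 ± 0.887 in tumor and 76.1 ± 2.37 in small intestine, Egln3 at 94.2 ± 0.312 in tumor against 80.2 ± 2.49 in small intestine, Bnip3 at 86.3 ± 3.31 in tumor against 64.5 ± 4.86 in small intestine, and P4ha1 at 54.3 ± 3.32 in tumor against 38.1 ± 5.01 in small intestine (SD, n = 4 each). Their ranks were higher in each tumor library than in any small intestine library. How many of all ranked genes separate in this way was not counted. In CPM, 70.5% of all tested genes did not overlap. Egln1 moved less, at 79.6 ± 0.781 in tumor against 72.9 ± 2.11 in small intestine, also without overlap. The ranks of Vegfa, at 85.4 ± 1.98 in tumor against 86.2 ± 3.30 in small intestine, overlapped between tissues. So did those of Epas1, at 64.4 ± 2.33 in tumor against 66.9 ± 5.44 in small intestine. Ranked by CPM, tumor was instead the higher for both, by 0.35 for Vegfa and 1.71 for Epas1. Ndrg1 was at 88.2 ± 1.88 in tumor and 91.4 ± 1.25 in small intestine, with ranges that also overlapped, 86.0 to 90.2 in tumor and 89.9 to 92.5 in small intestine.

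The small intestine libraries differed among themselves more than the tumor libraries did. The coefficient of variation was larger in small intestine for 9 of 10 genes, as for 77.7% of all tested genes, with a median over the 10 genes of 13.8% in tumor and 27.1% in small intestine. Adm varied by 1.28-fold between the highest and lowest tumor library and by 3.87-fold in small intestine, the widest range of the 10 genes in small intestine but not in tumor, where that was Bnip3 (1.65-fold). Ankrd37 varied by 1.45-fold in tumor and 3.15-fold in small intestine, P4ha1 by 1.37-fold in tumor and 2.46-fold in small intestine, and Vegfa by 1.39-fold in tumor and 2.13-fold in small intestine. Hif1a was the exception, with coefficients of variation of 15.7% in tumor and 13.4% in small intestine.

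In small intestine, replicate 3 was the lowest library for 8 of 10 genes and replicate 4 the highest for 7 of 10. Among all tested genes these shares were 26.5% and 27.5%. Ndrg1 went the other way, being highest in replicate 3. Replicates 2 and 4 both exceeded replicates 1 and 3 for Hif1a, Egln3, Vegfa, Adm, Ankrd37 and P4ha1, an order that was picked out after the values were seen and that held for 19.1% of all tested genes. For 18 of the 43 other HIF targets (41.9%) it held as well. In those 43, however, small intestine replicate 3 was the lowest library for only 34.9%, and replicate 1 for 39.5%. Replicate 4 was the highest for 34.9% of them, as was replicate 2. Enterocyte markers summed to 47638, 51538, 49263 and 58825 CPM in small intestine replicates 1 to 4, so replicate 4 was the highest there too, and goblet markers to 19408, 27304, 26284 and 33855 CPM. The part of these cells in the order was not tested. In tumor, replicate 1 was the highest library for 5 of 10 genes and replicate 3 the lowest for 5 of 10, beside 19.5% and 27.6% of all tested genes. Of the 43 other HIF targets, tumor replicate 1 was the highest for 44.2%. The lowest was most often tumor replicate 4 (46.5%), with replicate 3 at 25.6%.

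**Figure D5:**
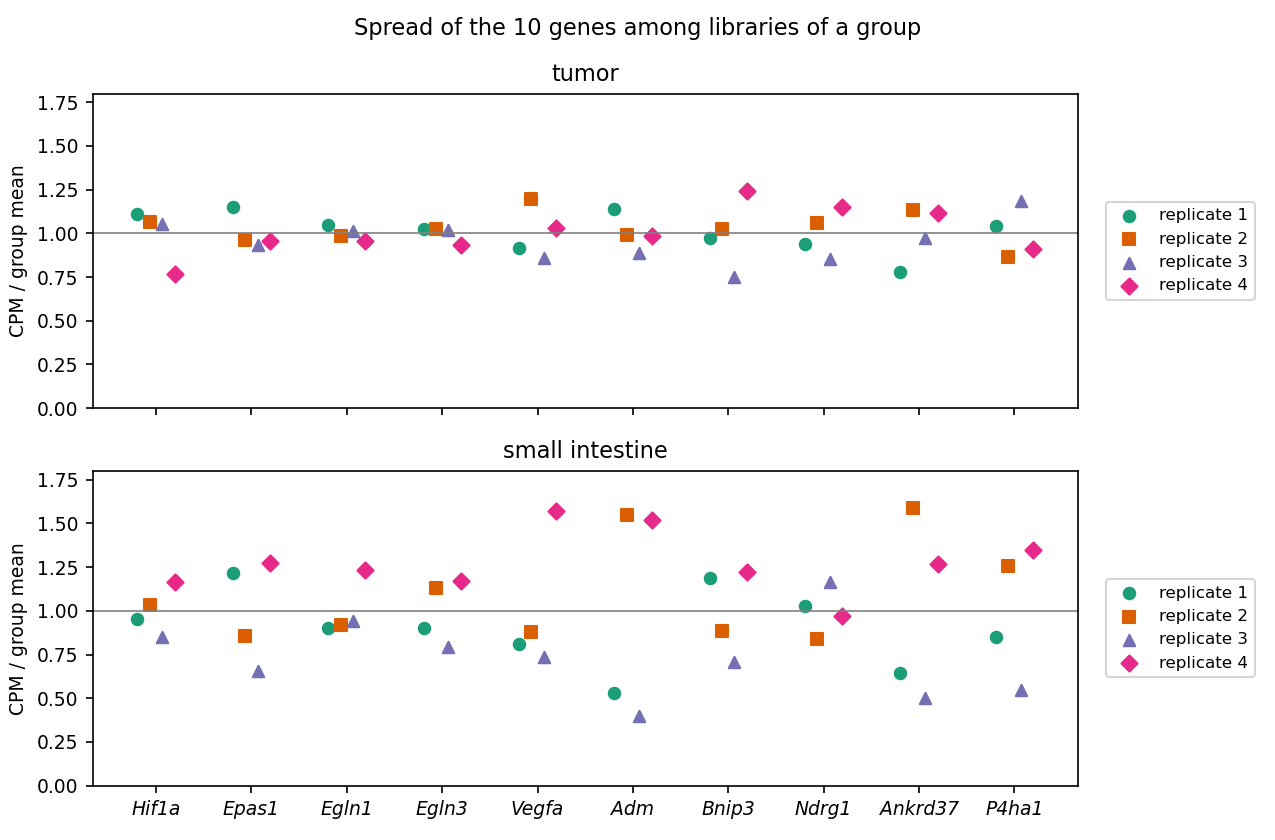
CPM of each of the 10 genes divided by the mean of its tissue, for tumor (top) and small intestine (bottom), with one symbol per replicate. In tumor the points lie between 0.753 and 1.245, both for Bnip3. In small intestine they lie between 0.400 (Adm) and 1.586 (Ankrd37), these genes spread widest, and replicate 3 (triangles) is lowest for 8 of 10 genes. Hif1a does not spread more in small intestine (0.848 to 1.164) than in tumor (0.767 to 1.113).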

How the data were processed

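Polyadenylated RNA of 4 tumor and 4 small intestine libraries was measured, grouped by the tissue label. The authors deposited whole-number read counts per gene and a table of FPKM values that they had corrected for gene length and depth. The tools named, per the submitters' processing notes, are STAR, HTSeq 0.6.0, Cufflinks 2.2.1 and FastQC, with build GRCm38. What each tool did, which annotation was used, and how strand and shared reads were handled is not given in the sources used. Symbols were found for 42462 of 43629 genes by Ensembl identifier, and coordinates come from GENCODE M21 (GRCm38).

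Counts were tested with edgeR 4.0.16 (quasi-likelihood, TMM, filterByExpr, tissue as the only term) in R 4.3.3, with Benjamini-Hochberg adjustment over 17029 genes and a threshold of 0.05. The SE is the size of the log2 fold change divided by the root of F. The FPKM test used limma 3.58.1 with a trend, on log2(FPKM + 1), over genes averaging 1 or more; this scale compresses changes of weakly expressed genes. DESeq2 1.42.0 served as an alternative. Ratios of reads within a library were tested by exact 2-sided permutation. Both model tests were tried on simulated counts. Each pair of libraries of a tissue differed beyond counting noise (chi-square over its degrees of freedom at least 38.9).

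The 10 genes, the 22 lists and the tests were chosen with earlier results of these data known. Named were the 10 genes, the called gene with the largest rise and fall of each pathway list (4 each for other HIF targets, of which 1 is not reported here), and the relatives used in ratios; others were named after their values were seen (Egln2, Hif1an, Arnt, Vhl and Slc11a2, and those of the closing paragraph). Of 183 listed genes 183 were found. Reads carry no molecular identifiers, so depth covers counting error only. Alternatives were other scalings, filters and tests, a 2-fold minimum, the replicate number as a block, FPKM settings and each library left out in turn.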

Additional observations from a re-analysis of the deposited data

Results flagged for a closer look

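In 3 of 32 groups of 4 libraries, 1 library stood apart from the other 3 by Dixon's test at the 95% level, which flags about 1 in 20 groups by chance. Epas1 was highest in tumor replicate 1, at 74.9 CPM, the other 3 lying between 60.8 and 62.4 CPM (ratio of gap to range 0.884). Egln3 was lowest in tumor replicate 4, at 163.8 CPM against 179.1 to 180.1 CPM (0.937). Egln1 was highest in small intestine replicate 4, at 81.2 CPM against 59.5 to 62.1 CPM (0.879), and without that library Egln1 was called higher in tumor (log2 fold change 0.30, edgeR adjusted p = 0.00694).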

How the results depend on the processing

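Hif1a, Egln3, Bnip3 and P4ha1 kept their rise and their call under all 19 alternatives, with log2 fold changes of 1.74 to 2.82, 1.06 to 2.08, 1.28 to 2.39 and 1.66 to 2.75. The scaling between tissues decided most other calls. With library totals 10564 genes were called higher and 2996 lower, of the 10 genes 8 and 0, and of the pathway genes 10 were lower. With FPKM 2326 genes were lower, of the 10 genes 8 were higher and 0 lower, and of the pathway genes 10 were lower. A 2-fold minimum left 3887 genes and 11 pathway genes lower. Epas1 was at -0.31 with TMM but at 0.56 with library totals, 0.57 with FPKM (also without the filter on low FPKM) and 0.62 with a pseudocount of 0.1. Ndrg2 was at -0.05 but at 0.82, 0.71 (also without the filter) and 0.81 in these settings. Ndrg1 kept its sign but lost its call with library totals and with FPKM. Vegfa was called lower, making 2 of the 10 genes lower, with DESeq2 size factors (-0.59), with the DESeq2 Wald test (-0.59) and with a mean of at least 1 CPM (-0.57).

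Leaving out each library in turn gave 6410 to 6814 genes higher and 5629 to 6103 lower, and 4 to 5 of the 10 genes higher and 1 to 3 lower. Without small intestine replicate 3, Epas1 (-0.47, edgeR adjusted p = 0.0198) and Vegfa (-0.69, edgeR adjusted p = 0.0291) were called lower beside Ndrg1, and without small intestine replicate 1 Vegfa was (-0.66, edgeR adjusted p = 0.0447). Without small intestine replicate 3, Adm stood at -0.01 and Ankrd37 at -0.11, and without replicate 2 at 0.54 and 0.43, none of them called. The 6 within-library ratios kept their sign in each of these settings and with FPKM (Hif1a/Epas1 1.94 to 2.19, Egln3/Egln1 0.89 to 1.07, Vegfa/Vegfb -1.54 to -1.01, Bnip3/Bnip3l 1.09 to 1.37, Ndrg1/Ndrg2 -1.23 to -1.03 and P4ha1/P4ha2 -3.59 to -2.99 with a library left out), and an exact permutation test of 3 against 4 libraries cannot go below p = 0.0571. Same-numbered libraries of the 2 tissues did not deviate together (r from -0.221 to 0.00214, against -0.123 to 0.258 for libraries of unlike number). Tumor and small intestine of the same mouse need not deviate together, so this cannot tell whether the numbers pair them. With a replicate block, 6301 genes were higher and 5592 lower, and Vegfa was called lower, making 2 of the 10 genes lower (-0.50, edgeR adjusted p = 0.0463). As paired differences the ratios have the same values. The cause of these changes was not tested.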

Other observations

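Some widely used HIF targets outside the naming rule, chosen after their values were seen, differed in whether they moved with Hif1a. Slc2a1, which imports glucose, averaged 165 ± 32.6 CPM in tumor, against 22.2 ± 4.46 CPM in small intestine (log2 fold change 2.89 ± 0.20), and Ddit4, an inhibitor of mTORC1 signalling, at 216 ± 28.8 CPM in tumor against 42.3 ± 8.82 CPM in small intestine (2.35 ± 0.16). Hilpda, a lipid droplet protein, was at 16.4 ± 3.73 CPM in tumor against 2.51 ± 0.880 CPM in small intestine (2.71 ± 0.28). The carbonic anhydrase Car9, often used as a hypoxia marker, did not pass (0.33 ± 0.23, edgeR adjusted p = 0.217), at 61.4 ± 16.8 CPM in tumor, against 48.9 ± 11.4 CPM in small intestine, but was called higher with library totals (1.19). Ldha was called lower (-0.60 ± 0.16, edgeR adjusted p = 0.0072), though not with library totals (0.28). Slc2a3, Pdk1, Aldoa and Pfkfb3 did not pass, but Pdk1, Aldoa and Pfkfb3 were called higher with library totals. Slc16a3 (1.85 ± 0.22), Hk2 (1.65 ± 0.41), Pgk1 (0.73 ± 0.13) and Eno1 (0.36 ± 0.10) were called higher with TMM and with library totals. Pfkfb4, given above, was called lower in both. Over the whole list of 43, 24 were higher and 9 lower.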
